A study of Saccharomyces cerevisiae with 6 samples.

Results

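The genes described here are the 3 chitin synthase genes of the budding yeast Saccharomyces cerevisiae, CHS1, CHS2 and CHS3, together with 4 genes whose products activate the third synthase or carry it to the cell surface, SKT5, CHS5, CHS6 and CHS7, and GFA1, whose enzyme opens the pathway that supplies the sugar from which chitin is made. These 8 genes were chosen by name, with earlier results of these data known. Each had 1 probe set in the annotation of the array, so all 8 were measured, out of 5449 S. cerevisiae genes tested. RNA of 6 samples was read on 6 Affymetrix arrays, 3 of a wild type and 3 of a strain that lacks PMR1, the pump that loads calcium and manganese into the Golgi. The wild type is given as BY4147, with the genotype MAT a ura3Δ0 leu2Δ0 his3Δ0 met15Δ0, and the deletion strain is NGY051, given as BY4741 pmr1Δ::kann. Both were haploid, both had 5 mM CaCl2 added to rich medium (YPAD, or YPD in other labels), and both were taken in exponential phase, so the calcium is common to the groups and is not itself compared. The deletion group is 1 named strain, and the labels do not say whether its 3 samples grew as separate cultures. The p-values therefore rest on the spread among the samples at hand, and that spread could be technical only.

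Chitin is a polymer of N-acetylglucosamine and a minor but essential part of the yeast wall. Chs2 lays down the primary septum at cytokinesis, Chs1 repairs the septum while mother and daughter separate, and Chs3 makes the ring at the bud neck and most of the chitin in the side walls. Chs3 is held back at several steps: it leaves the endoplasmic reticulum with Chs7, leaves the trans-Golgi with the exomer complex of Chs5 and its relatives of Chs6, and works at the bud neck with Skt5, also called Chs4. All values below are log2 levels as deposited, and levels of different genes are not compared, since each probe set has its own scale.

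The deleted gene was checked first. PMR1 (YGL167C) had log2 levels of 11.81, 11.79 and 11.84 in the wild type and 2.79, 3.45 and 3.16 in the deletion. The 3 deletion values lay under the array background, taken as the 95th percentile of the probe sets for the fission yeast S. pombe that the array also carries (4.18 to 4.31 per array), which makes the fall of PMR1 at least 186-fold (limma adjusted p = 3.43e-07). The mating type in the labels was checked on marker genes. MFA1, MFA2 and STE2, which encode the a pheromone and the receptor of a cells, had log2 levels between 11.89 and 13.42. The remaining a-cell genes were STE6 and BAR1, at log2 levels between 11.38 and 12.12, and ASG7, at 7.64 to 8.03. MF(ALPHA)1, which encodes the pheromone of alpha cells, was under background on all 6 arrays. The other 3 alpha-cell genes, STE3, MF(ALPHA)2 and SAG1, were above background on all 6 arrays, with log2 levels between 6.18 and 9.15. Of the 6 a-cell genes 4 fell and 1, ASG7, rose in the deletion, and of the 4 alpha-cell genes 3 rose. The log2 of the summed levels of the a-cell genes was 15.05 to 15.10 in the wild type and 14.58 to 14.65 in the deletion. That of the alpha-cell genes was 9.46 to 9.59 and 9.73 to 9.84. Each sum adds probe sets that have their own scales. It is weighted towards the brightest of them, such as MFA2 and STE2 for a cells and SAG1 for alpha cells. Of 6 genes of sporulating cells 1 rose and 1 fell, with summed levels of 9.83 to 9.97 and 9.79 to 9.90. Of all tested probe sets 17.5% rose and 11.7% fell. The part of these marker shifts in the results below was not tested.

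Of the 8 transcripts, 6 were higher in the deletion, and SKT5 and CHS7 did not pass the test. CHS1 rose most, by 0.56 on the log2 scale or 1.48-fold, while the rises of CHS2, CHS3, CHS5, CHS6 and GFA1 lay between 1.101-fold and 1.177-fold. The test was limma on all 5498 probe sets named for S. cerevisiae, two-sided, with p-values adjusted by Benjamini-Hochberg over all of them and a threshold of 0.05. Of the 8 genes 6 were higher and 0 lower, where 17.5% of all tested probe sets were higher, 11.7% lower and 29.2% called in either direction. The median log2 change was 0.17 over the 8 genes and 0.01 over all tested probe sets. The 3 deletion values lay above the 3 wild-type values for the same 6 genes, which held for 27.4% of all tested probe sets. With 3 arrays against 3 the exact two-sided permutation test of a single gene cannot go below 0.1, and each of the 6 genes had that value. The count of 6 fell to 2 without deletion replicate 1 or 2 and to 3 without wild-type replicate 1 or 3. It was 4 without wild-type replicate 2 or deletion replicate 3. Over all tested probe sets 963 were higher with all 6 arrays. That number was 599 and 709 without deletion replicates 1 and 2, and 633 and 686 without wild-type replicates 1 and 3. It was 1041 without wild-type replicate 2 and 720 without deletion replicate 3. With every probe set of the array in the test, 2 of the 8 genes were higher. The background share is also lower there, 548 of 10928 probe sets.

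**Figure D1:**
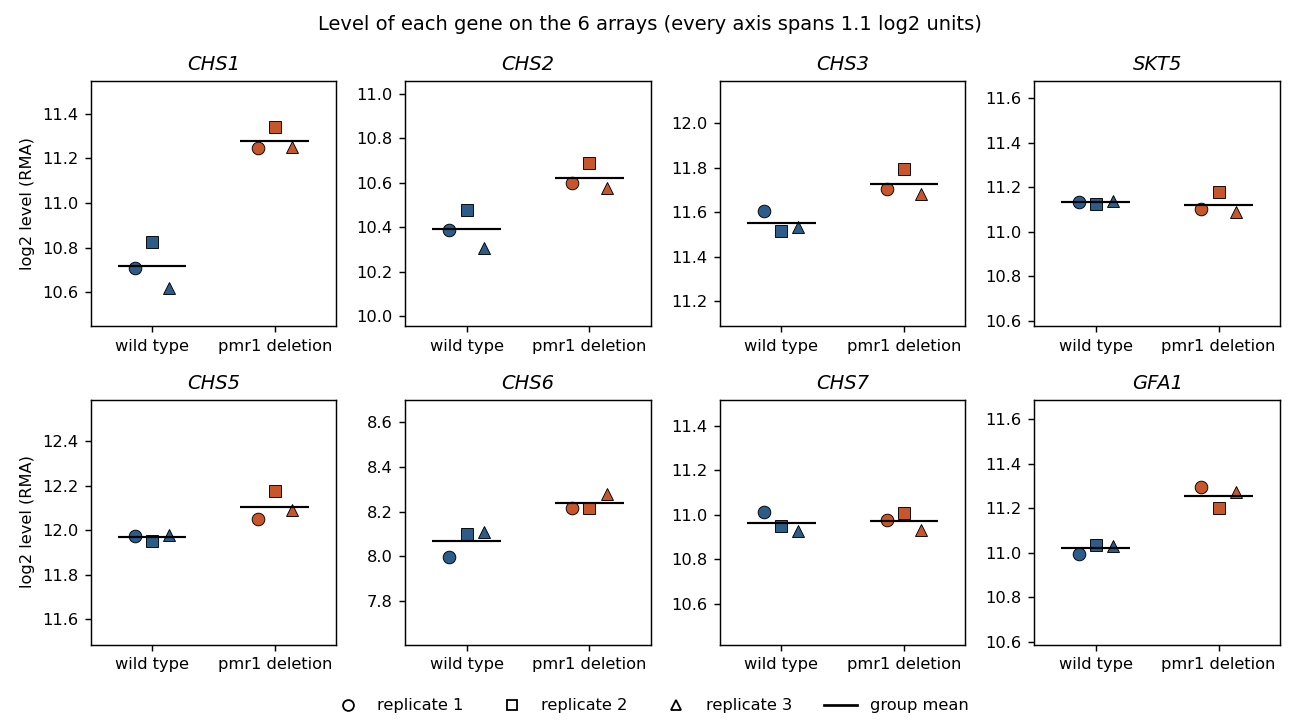
Log2 level (RMA) of each of the 8 genes on the 3 wild-type and the 3 pmr1 deletion arrays. Points are arrays, shapes are replicate numbers, horizontal lines are group means, and every vertical axis spans the same log2 distance. For CHS1 the groups stand 0.42 apart at their nearest values, and for SKT5 and CHS7 they overlap.

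Of the 3 synthase genes, CHS1 (YNL192W), for the synthase that repairs the septum, had log2 levels of 10.71, 10.82 and 10.62 in wild-type replicates 1, 2 and 3 and of 11.25, 11.34 and 11.25 in the deletion. All 3 deletion arrays were higher than all 3 wild-type arrays, and the gap between the nearest values, 0.42, was larger than the whole spread of the wild type, 0.21. The mean was 10.72 ± 0.104 (SD, n = 3) for the wild type and 11.28 ± 0.055 (SD, n = 3) for the deletion, a log2 change of 0.56 (SE 0.059, limma adjusted p = 0.000825). The 95% interval ran from 0.42 to 0.71 in log2, or from 1.34-fold to 1.63-fold. Only 1.93% of all tested probe sets rose by more.

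CHS2 (YBR038W), for the synthase of the primary septum, had log2 levels of 10.39, 10.48 and 10.31 in the wild type and of 10.60, 10.69 and 10.58 in the deletion. The groups did not overlap, but the gap of 0.10 was smaller than the spread of 0.17 within the wild type. The log2 change was 0.23 (SE 0.054, limma adjusted p = 0.0207), or 1.17-fold with a 95% interval of 1.07 to 1.28. This call ended when wild-type replicate 1 or 3 or deletion replicate 1 or 2 was left out (adjusted p of 0.0573 to 0.0599), and with every probe set of the array in the test (0.0802).

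CHS3 (YBR023C), for the synthase of the bud-neck ring and the side walls, had log2 levels of 11.60, 11.52 and 11.53 in the wild type and of 11.70, 11.79 and 11.68 in the deletion. The groups were apart by 0.08, less than the spread within either group. The log2 change was 0.18 (SE 0.044, limma adjusted p = 0.0259), or 1.13-fold with a 95% interval of 1.05 to 1.21. The call ended when wild-type replicate 2 or 3 or deletion replicate 1 or 2 was left out (adjusted p of 0.0549 to 0.0779). It also ended with the replicate number as a block in the model (0.0596) and with every probe set of the array in the test (0.105).

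**Figure D2:**
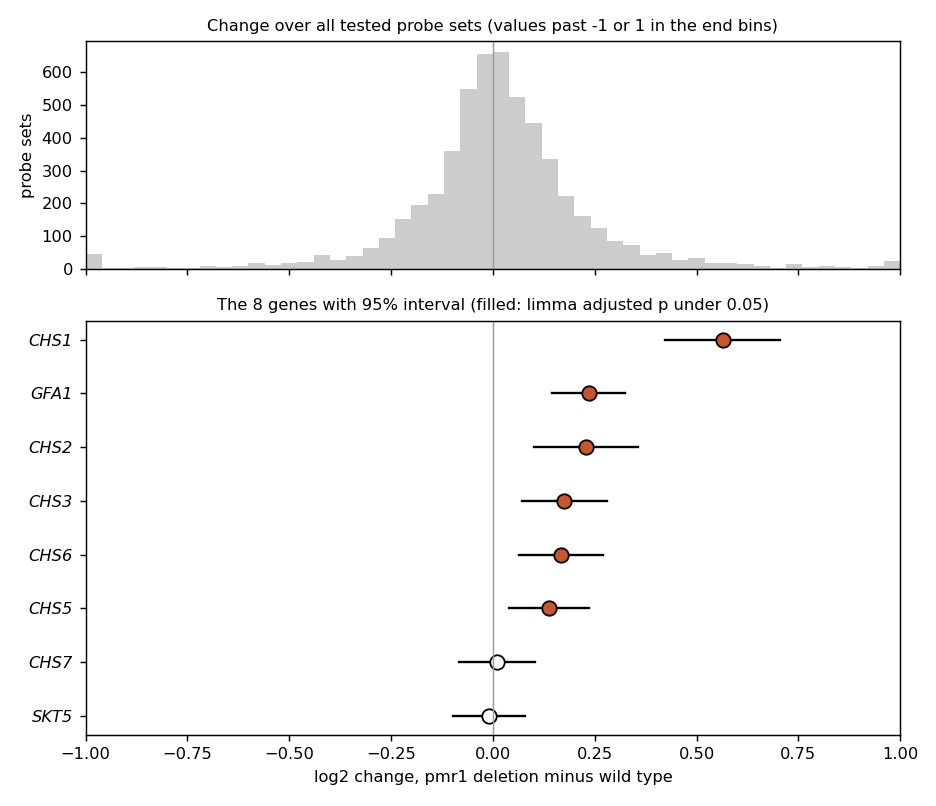
Upper panel, number of probe sets by log2 change (deletion minus wild type) over all 5498 tested. Lower panel, log2 change of the 8 genes with the 95% interval of the limma fit, filled where the adjusted p was under 0.05. The interval of CHS1, 0.42 to 0.71, lies above the estimates of the other 7 genes.

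Whether the 3 synthase genes changed unequally was asked on the log2 ratio between them within each array. Such a ratio removes an offset shared by all genes of an array, but not a difference that depends on level. The log2 ratio of CHS1 to CHS2 was 0.32, 0.34 and 0.31 on the wild-type arrays and 0.65, 0.66 and 0.67 on the deletion arrays. It was thus 0.34 higher in the deletion, with SDs of 0.019 and 0.014 within the groups (n = 3 each). The ratio of CHS1 to CHS3 was -0.90, -0.69 and -0.92 in the wild type and -0.46, -0.45 and -0.43 in the deletion, a difference of 0.39. In both ratios every deletion array lay above every wild-type array. The exact two-sided permutation p was 0.1 for each, the smallest possible with 3 against 3, and 0.15 after Benjamini-Hochberg adjustment over the 3 ratios compared, so neither can pass the threshold in this design. The ratio of CHS2 to CHS3 was -1.22, -1.04 and -1.22 in the wild type and -1.104, -1.105 and -1.107 in the deletion. Here wild-type replicate 2 lay above and the other 2 wild-type arrays below the deletion arrays, so the groups overlapped (difference 0.05, exact p = 0.4). Without wild-type replicate 2 the difference of CHS2 to CHS3 was 0.11.

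**Figure D3:**
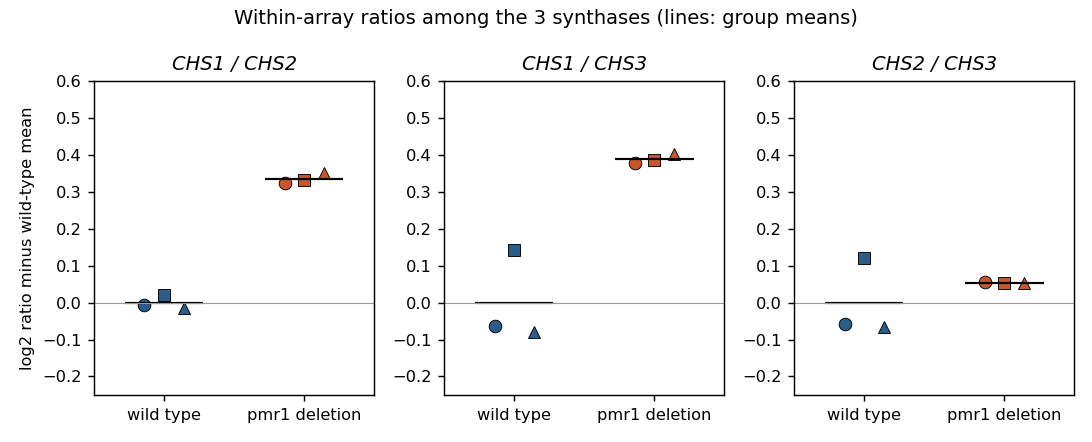
Log2 ratio of 2 synthase genes within each array, minus the mean of the wild type, for the 3 wild-type (blue) and the 3 deletion (orange) arrays. Circles, squares and triangles are replicates 1, 2 and 3, and thick lines are group means. CHS1 gained on CHS2 and CHS3 by 0.34 and 0.39, and the ratio of CHS2 to CHS3 overlapped between the groups.

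Of the 4 genes for factors that carry or activate Chs3, 2 rose by small amounts and 2 did not pass the test. CHS5 (YLR330W) encodes the core of exomer, the coat that sorts Chs3 and a few other proteins from the trans-Golgi to the plasma membrane. Its log2 levels were 11.97, 11.95 and 11.98 in the wild type and 12.05, 12.18 and 12.09 in the deletion. The wild-type values were close together, and the deletion values were all higher but spread over 0.12. The log2 change was 0.14 (SE 0.041, limma adjusted p = 0.0449), or 1.101-fold with a 95% interval of 1.03 to 1.18. This call ended when any 1 of the 6 arrays was left out (adjusted p of 0.0572 to 0.106) and with array weights (0.0509). It also ended with the replicate number as a block in the model (0.0853) and with every probe set of the array in the test (0.163).

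CHS6 (YJL099W) encodes one of the cargo adaptors of exomer that recognise Chs3. Its log2 levels were 7.997, 8.10 and 8.11 in the wild type and 8.22, 8.21 and 8.28 in the deletion. The groups were apart by 0.10, just under the spread of the wild type, 0.11. The log2 change was 0.17 (SE 0.044, limma adjusted p = 0.0284), or 1.12-fold with a 95% interval of 1.05 to 1.21. The call ended without wild-type replicate 1 or any of deletion replicates 1, 2 and 3 (adjusted p of 0.0519 to 0.0909), with an intensity trend and robust priors in the model (0.0669) and with every probe set of the array in the test (0.114).

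CHS7 (YHR142W) encodes the membrane protein of the endoplasmic reticulum that Chs3 needs to leave it. Its log2 levels were 11.01, 10.95 and 10.93 in the wild type and 10.98, 11.01 and 10.93 in the deletion. The groups overlapped, and the log2 change of 0.01 (SE 0.039, limma adjusted p = 0.873) had a 95% interval of -0.08 to 0.10. SKT5 (YBL061C), for the activator that links Chs3 to the septins, had log2 levels of 11.13, 11.12 and 11.14 in the wild type and of 11.10, 11.18 and 11.09 in the deletion. Its groups overlapped too, with a log2 change of -0.01 (SE 0.037, limma adjusted p = 0.876) and a 95% interval of -0.10 to 0.08. As folds, the intervals run from 0.944 to 1.07 for CHS7 and from 0.935 to 1.06 for SKT5.

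CHS3 was also set against these 2 genes within each array. The log2 ratio of CHS3 to SKT5 had a wild-type mean of 0.42 ± 0.044 (SD, n = 3) and a deletion mean of 0.60 ± 0.0087 (SD, n = 3). That of CHS3 to CHS7 was 0.59 ± 0.019 (SD, n = 3) and 0.75 ± 0.027 (SD, n = 3). Both pairs were chosen after their values were seen, so these ratios are a description with no test, and nothing is read from them about SKT5 or CHS7 alone.

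GFA1 (YKL104C) encodes glutamine-fructose-6-phosphate amidotransferase, the first and rate-limiting enzyme of the route to UDP-N-acetylglucosamine, the substrate of all chitin synthases and of protein glycosylation. Its log2 levels were 10.996, 11.04 and 11.03 in the wild type and 11.29, 11.20 and 11.27 in the deletion. All 3 deletion arrays were higher, and the gap of 0.17 exceeded the spread within both groups, 0.04 and 0.09. The log2 change was 0.24 (SE 0.038, limma adjusted p = 0.00461), or 1.18-fold with a 95% interval of 1.11 to 1.25. CHS1 and GFA1 kept their calls under each of the 16 alternative settings, and the adjusted p of GFA1 reached 0.03 at most.

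Deletion replicate 2 stood at the top of its group for 6 of the 8 genes and at the bottom for CHS6 and GFA1. Over all tested probe sets its median level was 10.39, against 10.35 and 10.34 for deletion replicates 1 and 3. With the arrays set to a common median the count of higher genes was again 6. No array of the wild type was the highest for more than 3 of the 8 genes.

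**Figure D4:**
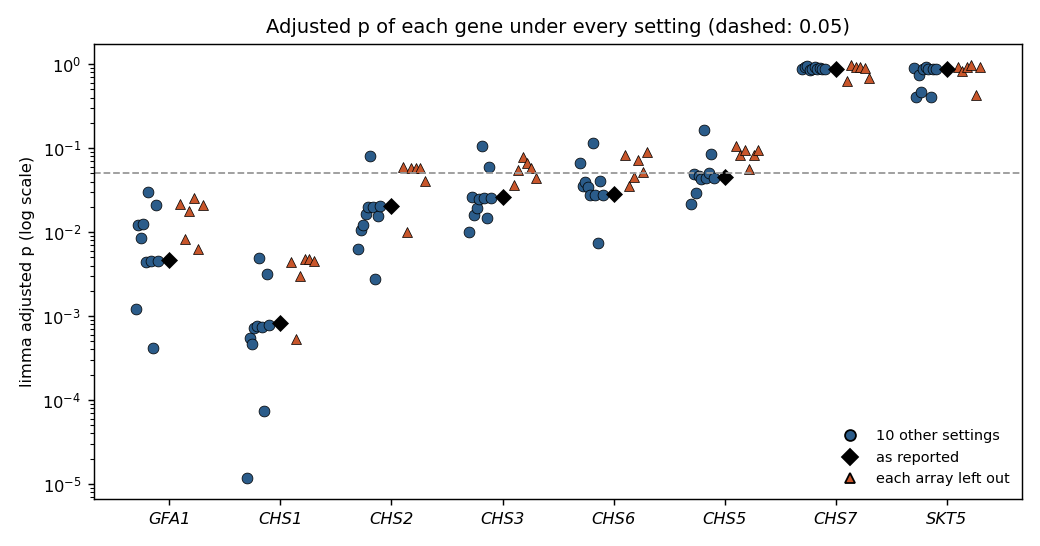
Limma adjusted p (log scale) of each gene as reported (diamonds), under 10 other settings (circles) and with each array left out (triangles), with the threshold of 0.05 dashed. CHS1 and GFA1 stay below the line throughout, CHS2, CHS3, CHS5 and CHS6 lie on both sides of it, and CHS7 and SKT5 stay above it.

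The other steps towards UDP-N-acetylglucosamine were read from the 3 genes that follow GFA1, of which 2 rose and 0 fell (median log2 change 0.18). Over all tested probe sets 17.5% were higher and 11.7% lower. PCM1, for the mutase of the third step, had log2 levels of 11.73, 11.78 and 11.77 in the wild type and of 12.13, 12.17 and 12.16 in the deletion. It rose by 0.39 (SE 0.033, limma adjusted p = 0.000324), and its groups were far apart compared with their spread. QRI1, for the pyrophosphorylase that makes the final sugar nucleotide, rose by 0.18 (SE 0.044, limma adjusted p = 0.0261). That call ended without wild-type replicate 1 or 2 or any deletion replicate. It also ended with the replicate number as a block in the model and with every probe set of the array in the test. GNA1, for the acetyltransferase between GFA1 and PCM1, had a log2 change of -0.02 (SE 0.041, limma adjusted p = 0.755).

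Among the partners of Chs5 and Chs6, 2 adaptor genes rose. Of 5 genes for the other exomer adaptors and the Arf GTPases that recruit the coat, 2 rose and 0 fell. The median log2 change was 0.18, and of all tested probe sets 17.5% rose and 11.7% fell. The adaptors BCH1 and BUD7 rose by 0.19 (SE 0.045, limma adjusted p = 0.0197) and 0.18 (SE 0.055, adjusted p = 0.0447). BCH2, the paralog of CHS6, had a log2 change of 0.18 that did not pass the test (SE 0.07, adjusted p = 0.104). BUD7 lost its call without any 1 of the arrays, BCH1 without wild-type replicate 1 or 3 or deletion replicate 1 or 3, and both with every probe set of the array in the test. ARF1 and ARF2 had log2 changes of 0.01 and 0.08.

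Chs3 cycles between the plasma membrane, early endosomes and the trans-Golgi. Of 10 genes for that retention and recycling, 3 rose and 0 fell, against 17.5% and 11.7% of all tested probe sets (median log2 change 0.12). CHC1, for the clathrin heavy chain, had log2 levels of 11.31, 11.46 and 11.27 in the wild type and of 11.77, 11.75 and 11.76 in the deletion. It rose by 0.42 (SE 0.053, limma adjusted p = 0.00187), while CLC1, for the light chain, had a log2 change of 0.11 (adjusted p = 0.0724). APM1, for a subunit of the AP-1 adaptor, rose by 0.15 (SE 0.032, adjusted p = 0.0123), and its call ended with every probe set of the array in the test (0.0806). RCY1, for an F-box protein of endosome recycling, rose by 0.16 (SE 0.038, adjusted p = 0.0201), a call lost in that setting too and without wild-type replicate 1 or 3 or deletion replicate 1. Of the 10 genes 5 were higher without wild-type replicate 2, with array weights or with an intensity trend. In these settings 1041, 1434 and 1074 of all tested probe sets were higher, against 963 in the main fit. Without wild-type replicate 1 or 3 or deletion replicate 1 the count was 2, and 633, 686 and 599 probe sets were higher. With every probe set of the array in the test it was 1, where 548 of 10928 probe sets were higher.

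Of 9 genes that anchor Chs3 at the neck or palmitoylate it, 1 rose and 0 fell (median log2 change 0.06). The shares over all tested probe sets were 17.5% and 11.7%. The gene that rose was SHC1, the sporulation counterpart of SKT5. Its log2 levels were 7.35, 7.18 and 7.44 in the wild type and 7.67, 7.76 and 7.81 in the deletion. The groups did not overlap, and SHC1 rose by 0.42 (SE 0.072, limma adjusted p = 0.00596). The 5 septin genes CDC3, CDC10, CDC11, CDC12 and SHS1, and BNI4, which links Skt5 to the septins, did not pass the test, with log2 changes of 0.03 to 0.13.

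Genes for enzymes that act on finished chitin moved in both directions, 2 of 7 up and 2 down (median log2 change 0.08). The shares over all tested probe sets were 17.5% up and 11.7% down. CRH1 and UTR2 encode transglycosylases that join chitin to glucan. CRH1 had log2 levels of 12.86, 12.69 and 12.94 in the wild type and of 13.42, 13.47 and 13.40 in the deletion, and rose by 0.60 (SE 0.065, limma adjusted p = 0.000908), or 1.52-fold. UTR2 fell by 0.22 (SE 0.046, adjusted p = 0.0126), a call lost without deletion replicate 1 and with every probe set of the array in the test. CTS1, for the chitinase that frees the daughter from the mother, had log2 levels of 13.52, 13.53 and 13.65 in the wild type and of 13.24, 13.36 and 13.31 in the deletion, and fell by 0.26 (SE 0.052, adjusted p = 0.0106). CTS2, for a second chitinase-like protein, rose by 0.21 (SE 0.037, adjusted p = 0.00593). CHS1, whose product also acts at cell separation, was higher on the same arrays, and a link between its change and that of CTS1 was not tested. The chitin deacetylase genes CDA1 and CDA2 did not pass the test.

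**Figure D5:**
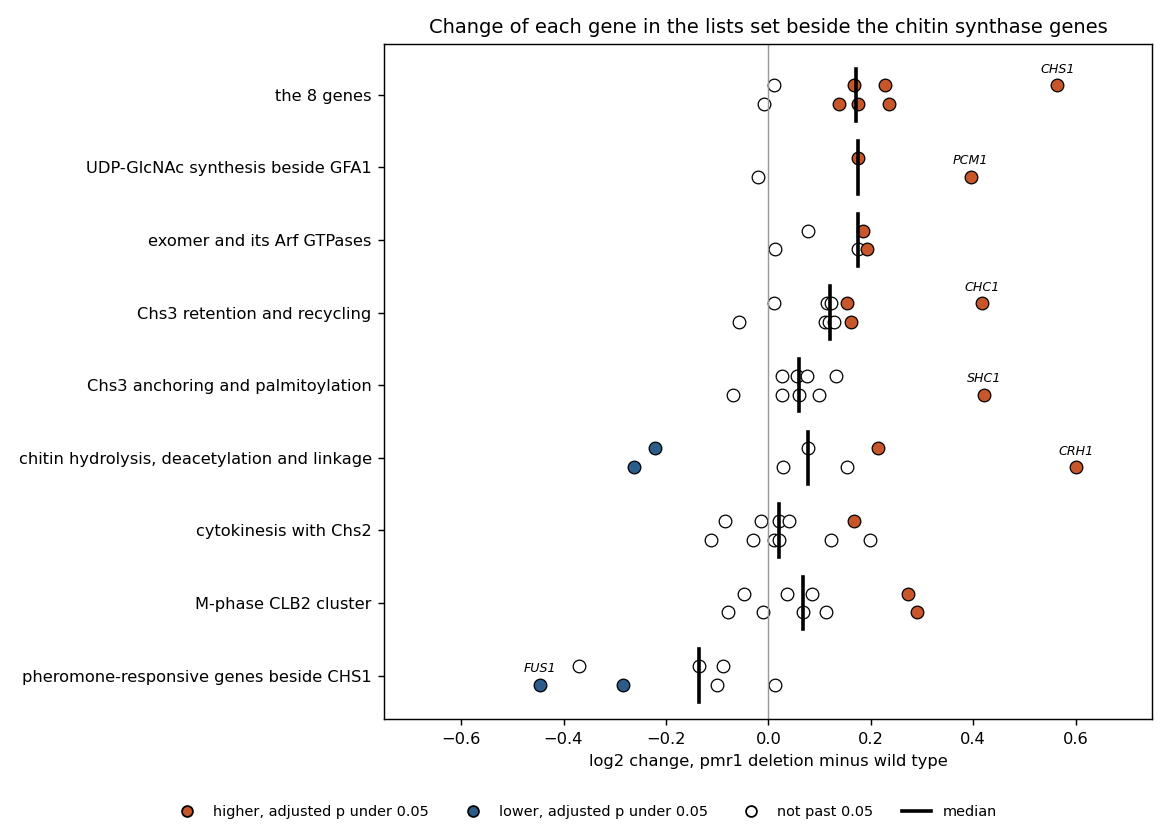
Log2 change (deletion minus wild type) of every measured gene of the 8 described here and of 8 lists set beside them. Points are genes, orange where higher and blue where lower at an adjusted p under 0.05, white otherwise, and thick lines are list medians. Of the 8 genes 6 lie to the right as higher, and in the list of enzymes on finished chitin 2 are higher and 2 lower. Over all tested probe sets 17.5% were higher and 11.7% lower.

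Because CHS2 is transcribed in M phase and acts at the end of division, 2 lists of that stage were read beside it. Their counts stand beside 17.5% higher and 11.7% lower over all tested probe sets. Of 11 genes for cytokinesis with Chs2, 1 rose and 0 fell (median log2 change 0.02): MOB1, a subunit of a kinase of mitotic exit, rose by 0.17 (SE 0.042, limma adjusted p = 0.0248). That call was absent in 8 of the 16 alternative settings. Of 9 measured genes of the M-phase cluster around CLB2, 2 rose and 0 fell (median 0.07), and CLB2 itself had a log2 change of -0.08 (SE 0.06, adjusted p = 0.362). BUD3, a bud-site selection gene, rose by 0.29 (SE 0.038, adjusted p = 0.00197), and KIN3, a kinase gene, rose by 0.27 (SE 0.056, adjusted p = 0.0125) with a call lost with every probe set of the array in the test (0.0522).

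CHS1 is also known as a gene that mating pheromone induces. Of 7 other pheromone-responsive genes 2 fell and 0 rose, against 11.7% and 17.5% of all tested probe sets (median log2 change -0.14). FUS1, a cell fusion gene, had log2 levels of 9.51, 9.13 and 9.60 in the wild type and of 8.96, 9.002 and 8.95 in the deletion, and fell by 0.45 (SE 0.11, limma adjusted p = 0.027). AGA1, for the anchor of a-agglutinin, fell by 0.28 (SE 0.071, adjusted p = 0.0247). Both calls ended without any 1 array other than wild-type replicate 2, and with every probe set of the array in the test. These 7 genes were chosen with earlier results known, and a part of the pheromone response in the change of CHS1 was not tested.

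Chromosomal neighbours of the 8 genes showed no common direction. The R64 annotation gives 16 adjoining protein-coding genes, and 14 of them were measured. Of these 2 rose, 3 fell and 9 did not pass the test, where 17.5% of all tested probe sets rose and 11.7% fell. DUG3 and YNL193W, which flank CHS1, had log2 changes of 0.01 (limma adjusted p = 0.923) and 0.15 (adjusted p = 0.0776). CHS7 had a log2 change of 0.01, and DSE2 next to it, a gene for a secreted glucanase-like protein, fell by 0.58 (SE 0.066, adjusted p = 0.00109).

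The genes whose levels followed those of CHS1 most closely over the 6 arrays were BNA1 (Pearson's r = 0.999), ICT1 (0.998), PTP2 (0.998), PAU18 (0.998) and RAD50 (0.998). BNA1 encodes an enzyme of NAD synthesis, ICT1 a lysophosphatidic acid acyltransferase, PTP2 a phosphatase of MAP kinases and RAD50 a protein of DNA break repair. PAU18 is of a large family of near-identical genes, and its probe set is of a kind that can bind several of them. The log2 changes of the 5 genes were 0.52, 0.58, 0.46, 0.55 and 0.16. These correlations are a description over 6 arrays in 2 groups, and 840 of the 5448 other genes had an r of at least 0.9 with CHS1.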

How the data were processed

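Total RNA of 3 wild-type and 3 pmr1 deletion samples was hybridised to Affymetrix arrays, and groups came from the sample titles. The deposited table holds 10928 probe sets as log2 values, and the authors used GCOS, RMA and limma, per the submitters' processing notes, with no versions. RMA corrects background, equalises the array distributions and summarises probes, which compresses folds, of dim genes most. No source used here gives the array's genome build. The probe annotation and the R64 gene table named 5498 S. cerevisiae probe sets. Not tested were 1747 probe sets of S. pombe, 3470 with no name and 213 controls. The fit was limma 3.58.1 in R 4.3.3 (lmFit, eBayes, 2 groups), tested on simulated data, with the highest-mean probe set per gene. Intervals at 95% come from its moderated variance. The number of arrays limits the precision, and no depth exists. Ratios were tested in scipy 1.17.1 and figures drawn with matplotlib 3.10.9 in Python 3.11.15.

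The members, the 8 lists, the marker genes and the tests were chosen with earlier results of these data known. Named by rule are the 8 genes, PMR1, up to 4 called genes per list whose groups do not overlap, and the 5 genes most like the member that changed most. Other list genes and chromosomal neighbours named in the text were picked with their values in view. The 16 alternatives left out each array in turn, or used an intensity trend and robust priors, 3 further scalings (quantile, median, cyclic loess), weights per array, a block for the replicate number, gene means over probe sets, every probe set on the array, only probe sets above background, or only those specific to 1 transcript. Promoter and protein sequences were not used here, and 1 further list is not reported here.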

Additional observations from a re-analysis of the deposited data

How the results depend on the processing

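CHS1, GFA1 and PMR1 kept direction and call in all 16 alternatives, and SKT5 and CHS7 passed in none. With every probe set of the array in the test, 2 of the 8 genes were higher. Of all 10928 probe sets 548 were higher and 325 lower in that fit. More p-values are adjusted together there, and the variance prior also takes in unnamed, control and S. pombe probe sets. The part of each in the lower counts was not tested. In that setting CHS2 (log2 change 0.23), CHS3 (0.18), CHS5 (0.14) and CHS6 (0.17) had the same changes and adjusted p of 0.0802, 0.105, 0.163 and 0.114. With array weights CHS5 was at 0.093 (adjusted p = 0.0509) and 1434 probe sets were higher and 1087 lower. With an intensity trend and robust priors CHS6 was at 0.17 (adjusted p = 0.0669). In these 2 settings the cause was not tested.

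The sample titles number the replicates without saying whether equal numbers belong together. Deviations from the group means of same-numbered arrays correlated at -0.14, 0.0003 and 0.08 over all tested probe sets. Those of other pairs across the groups correlated at -0.14 to 0.15. With 3 arrays per group these values cannot decide whether the samples were paired. With the replicate number as a block, CHS3 (0.18, adjusted p = 0.0596) and CHS5 (0.14, adjusted p = 0.0853) did not pass, nor did QRI1 of the lists, 4 of the 8 genes were higher, and 805 probe sets were higher and 570 lower. The block leaves fewer residual degrees of freedom.

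With each array left out in turn, the log2 change was 0.51 to 0.62 for CHS1, 0.19 to 0.27 for CHS2, 0.14 to 0.20 for CHS3, 0.10 to 0.17 for CHS5, 0.13 to 0.19 for CHS6 and 0.22 to 0.26 for GFA1. The count of higher genes was 2 to 4 of 8, and over all probe sets 599 to 1041 were higher and 373 to 629 lower, with fewer samples in each fit. The ratio of CHS1 rose by 0.33 to 0.35 against CHS2 and by 0.35 to 0.46 against CHS3, and that of CHS2 to CHS3 by 0.02 to 0.11.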

Other observations

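The array also carries probe sets for the S. pombe genes chs1 and chs2, which no comparison in the report names. S. pombe chs1 had log2 levels of 2.79 to 3.10 and S. pombe chs2 of 2.71 to 2.93 over the 6 arrays, under the background on each.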
